A study of Mus musculus with 8 samples.

Results

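The antiviral effectors described here are 52 interferon-stimulated genes, chosen by name from the per-library count files: RNA sensors, the IFIT, OAS, SLFN and PARP families, and other proteins that act against viruses or tune the response. Interferon regulatory factors, chemokines and guanylate-binding GTPases were left out by the same rule. All 52 symbols were found among the 24421 gene symbols in the files, and 51 of them passed the filter on low counts, as did 11519 genes in all. The cells were bone marrow-derived macrophages (BMDM), grown in culture from mouse marrow, and all 8 cultures had received interleukin 4 (IL-4), the cytokine of alternative macrophage activation, for 24 h. In the CKO group (replicates 2, 6, 7 and 8) both Opa1 alleles were floxed (OPA1f/f) and the mice carried Lyz2-Cre, in which the Lyz2 locus drives Cre recombinase in myeloid cells. The FLOX group (replicates 3, 4, 6 and 7) was OPA1f/f without Cre. Strain, age and whether each library is a separate mouse were not given in the sources used here, so p-values measure the spread between these libraries, which may be technical. Since the controls carry no Cre, loss of OPA1, the presence of the driver and any batch that follows genotype cannot be told apart. The comparison asks how the genotype changes these genes under IL-4, and no culture without IL-4 was part of it.

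As background, cells that sense viral nucleic acid secrete type I interferon, which binds the receptor made of IFNAR1 and IFNAR2. The kinases JAK1 and TYK2 then activate STAT proteins, among them STAT2, which with IRF9 is part of the complex ISGF3, and this complex binds a DNA motif, the interferon-stimulated response element (ISRE), in front of many interferon-stimulated genes. Macrophages keep a low tonic level of this response, and several of its products, such as RIG-I, MDA5 and STAT2, feed back on the pathway that induced them. OPA1 is a dynamin-like GTPase that fuses the inner mitochondrial membrane and shapes cristae, and the series title places it upstream of mitochondrial DNA sensing.

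The libraries held 11764855 to 18939948 assigned read pairs. Levels are given in CPM, a count per gene set relative to the total of its library, on library sizes scaled by TMM, and differences as log2 fold changes of CKO against FLOX from edgeR's quasi-likelihood test, with Benjamini-Hochberg adjusted p-values (across the 11519 genes) called below 0.05. Opa1 averaged 100.1 ± 4.42 CPM in CKO against 114 ± 11.6 CPM in FLOX (SD, n = 4 each; log2 fold change -0.19, edgeR adjusted p = 0.0544). Without FLOX replicate 3 or FLOX replicate 6 the adjusted p was 0.0182 or 0.04965, and gene totals do not resolve the deleted exons. Lyz2, the driver locus, fell from 7439 ± 597 to 2030.5 ± 251 CPM. The macrophage marker Adgre1 (F4/80) was level between CKO (1170.2 ± 28.1 CPM) and FLOX (1167 ± 19.1 CPM). Of the 8 macrophage markers 1 rose, Fcgr1 (12.5%, against 23.8% of all tested genes). Cd68, Csf1r, Mertk and Lyz2 fell (50%, against 21.6%), and of these 4 Lyz2 is also the driver locus. In contrast, 6 of the 7 islet markers had 0 counts in every library, although the extraction protocol in the labels names islets.

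The antiviral effectors were higher in CKO as a group. Of the 51 tested members 47 rose and 0 fell, while 23.8% of all tested genes rose and 21.6% fell. The count of 0 was the same at an unadjusted p below 0.05 in edgeR, and also in DESeq2 and limma-voom. Their median log2 fold change was 0.92, a 1.89-fold higher level, against -0.02 over all tested genes. More than 2-fold rises were called for 23 members, against 4.67% of all tested genes, and 34 members lay above the 90th percentile of all tested log2 fold changes, which was 0.62. In 47 members every CKO library was above every FLOX library, which held for 22.7% of all tested genes, and in 0 members every CKO library was below, which held for 20% of all tested genes. Summed over the 52 members, the level was 5296 to 5704 CPM in CKO and 3259 to 3533 CPM in FLOX, with no overlap. The libraries are bulk RNA, so a larger number of cells expressing these genes and more RNA per cell cannot be told apart.

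**Figure D1:**
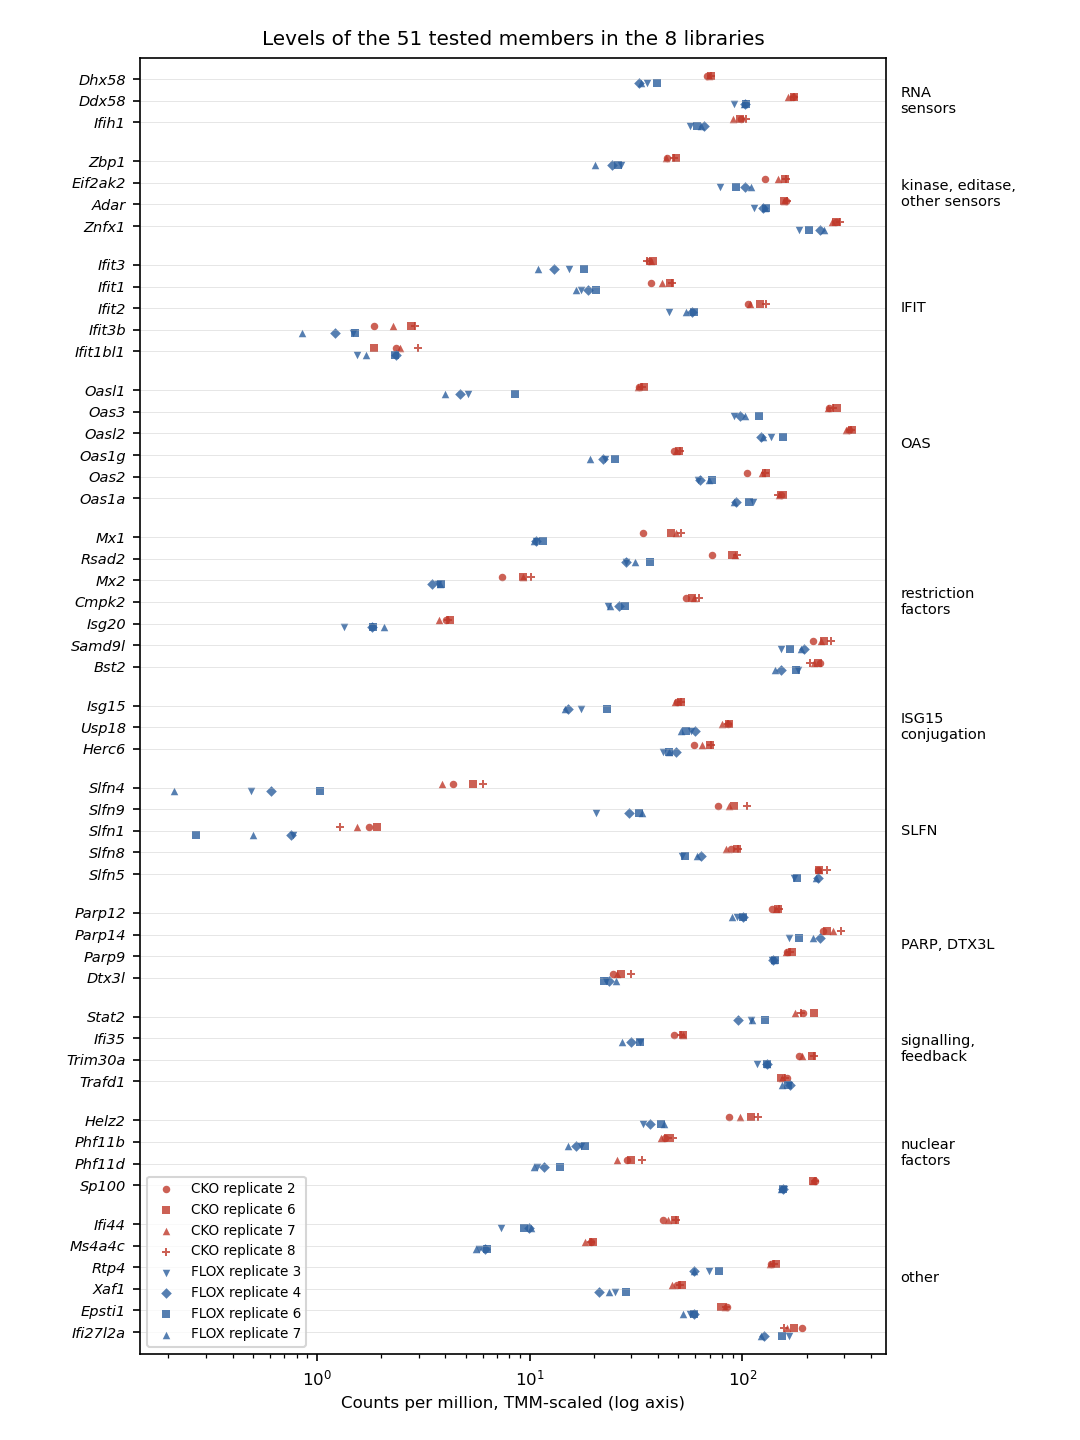
Level of each of the 51 tested members in each library, in CPM on a log axis; red symbols are the 4 CKO and blue symbols the 4 FLOX libraries, with 1 symbol shape per replicate number, and members are grouped by role. Red symbols lie to the right of all blue ones for 47 members, and the lowest FLOX means, under 1 CPM, are those of Slfn1 and Slfn4.

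All 3 cytosolic RNA sensors rose. In the order of the replicates given above, which is kept throughout, Dhx58, which encodes LGP2, a helicase without signalling domains that tunes the other sensors, stood at 68.2, 71.1, 69.5 and 70.8 CPM in CKO and at 35.7, 32.7, 39.5 and 33.4 CPM in FLOX. The 2 groups were far apart, and the CKO libraries lay close together (log2 fold change 0.98 with SE 0.07, edgeR adjusted p = 6.6e-07). Ddx58, which encodes RIG-I, the sensor of short RNA with a 5′ triphosphate, was at 173, 175, 164 and 174 CPM in CKO against 91.1, 102, 104 and 101 CPM in FLOX. CKO replicate 7 was the lowest of its group and still above every FLOX library (log2 fold change 0.78 with SE 0.06, edgeR adjusted p = 1.12e-06). Ifih1, which encodes MDA5, the sensor of long double-stranded RNA, rose by 0.65.

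Another 4 genes of nucleic acid binding rose too, and by less, apart from Zbp1. Zbp1, a sensor of Z-form nucleic acid that can start necroptosis, measured 44.2, 48.9, 43.6 and 47.8 CPM in CKO and 26.7, 24.4, 25.9 and 20.3 CPM in FLOX. Its lowest value was that of FLOX replicate 7 (log2 fold change 0.92 with SE 0.09, edgeR adjusted p = 4.94e-06). Adar, the enzyme that edits adenosine in double-stranded RNA and so keeps the cell's own RNA from being sensed, was at 160.1, 157, 157 and 161 CPM in CKO and 113, 125, 129 and 128 CPM in FLOX. These groups did not overlap, with a log2 fold change of 0.36 (SE 0.06, edgeR adjusted p = 0.000277). Eif2ak2, which encodes the kinase PKR that halts translation, rose by 0.63 and the helicase gene Znfx1 by 0.35.

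Of the 5 IFIT genes, whose proteins bind viral RNA and block its translation, 4 rose. They lie in 1 cluster on chromosome 19 (Ifit2 at chromosome 19, 34550694 to 34576419 and Ifit1 at chromosome 19, 34640871 to 34650009, mm10). Ifit1 was at 37.2, 45.7, 41.9 and 46.6 CPM in CKO and 17.4, 18.8, 20.5 and 16.5 CPM in FLOX, with CKO replicate 2 the lowest of its group (log2 fold change 1.23 with SE 0.09, edgeR adjusted p = 1.02e-06). Ifit2 measured 106, 121, 108 and 129 CPM against 45.2, 57.8, 59.3 and 54.5 CPM, and here FLOX replicate 3 was the lowest library (log2 fold change 1.10 with SE 0.09, edgeR adjusted p = 2.17e-06). Ifit3, whose product stabilises IFIT1 on RNA, rose by 1.35, and its near copy Ifit3b by 0.95 from 21, 16, 28 and 12 counts in FLOX to 22, 42, 37 and 43 in CKO. Ifit1bl1 was the exception, at 2.35, 1.85, 2.47 and 2.97 CPM in CKO and 1.54, 2.34, 2.32 and 1.70 CPM in FLOX. Its groups overlapped, and the interval of its log2 fold change of 0.27 ran from -0.22 to 0.77 (95%, edgeR adjusted p = 0.294). Ifit3 and Ifit3b share sequence: 51.2% of the 50-base stretches in the transcripts of Ifit3 also occur in other genes, and read pairs with more than 1 alignment were not assigned, so the levels of this pair are uncertain.

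All 6 OAS genes rose, 4 of them by more than 2-fold. The OAS proteins are switched on by double-stranded RNA and make 2′-5′ linked oligoadenylate, a messenger of RNA decay. Oas3, the largest of them and a sensor of long RNA, stood at 254, 278, 252 and 268 CPM in CKO and 91.1, 96.8, 119 and 103 CPM in FLOX. No library of 1 group reached the other, and FLOX replicate 6 was the highest control (log2 fold change 1.36 with SE 0.08, edgeR adjusted p = 2.09e-07). Oasl2 was at 317, 326, 308 and 323 CPM and 136, 123, 156 and 124 CPM, again with FLOX replicate 6 highest among controls (log2 fold change 1.24 with SE 0.08, edgeR adjusted p = 2.68e-07). The largest rise of the family was that of Oasl1 (ENSMUSG00000041827, chromosome 5, 114923240 to 114937915, mm10), which has no synthase activity and is known to restrain translation of Irf7. It measured 32.5, 34.4, 32.1 and 33.7 CPM in CKO and 5.12, 4.69, 8.53 and 3.97 CPM in FLOX, a log2 fold change of 2.54 (SE 0.17, edgeR adjusted p = 6.6e-07). FLOX replicate 6 lay well above the other controls, and without it the log2 fold change was 2.85. Oas1a (0.57) and Oas1g (1.15) share 57.6% of the 50-base stretches of Oas1a, so reads of this pair may have been left unassigned, and Oas2 rose by 0.87.

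The 7 restriction factors rose without exception. Mx1, a dynamin-like GTPase that blocks viral ribonucleoproteins in the nucleus, was at 33.9, 46.3, 48.5 and 51.1 CPM in CKO and 10.7, 10.7, 11.5 and 10.5 CPM in FLOX. CKO replicate 2 was the lowest of its group, and the FLOX libraries were nearly level (log2 fold change 2.05 with SE 0.12, edgeR adjusted p = 1.95e-07). Cmpk2, a mitochondrial nucleotide kinase, was at 54.2, 58, 59.4 and 62.5 CPM against 23.3, 26.2, 28.1 and 23.9 CPM, also without overlap (log2 fold change 1.20 with SE 0.08, edgeR adjusted p = 3.56e-07). Its neighbour Rsad2, which encodes viperin, an enzyme that makes a chain-terminating nucleotide from CTP, rose by 1.47; the 2 genes lie head to head on chromosome 12. Mx2 rose by 1.29 and the exonuclease gene Isg20 by 1.19, both from low levels of 3.70 ± 0.153 and 1.76 ± 0.306 CPM in FLOX (SD, n = 4 each). The smallest rises here were those of Samd9l (0.44) and of Bst2 (0.43), which encodes tetherin, a protein that holds budding virus at the cell surface.

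Genes of ISG15 conjugation rose to unequal degrees. Isg15 (ENSMUSG00000035692, chromosome 4, 156199424 to 156200818, mm10), a ubiquitin-like protein attached to newly made proteins, was at 49.2, 51.5, 48 and 51.6 CPM in CKO and 17.4, 15.1, 23.1 and 14.6 CPM in FLOX. The CKO values lay within a narrow range, and FLOX replicate 6 was the highest control (log2 fold change 1.50 with SE 0.12, edgeR adjusted p = 1.69e-06). Usp18, the protease that removes ISG15 and also blocks signalling at IFNAR2, was at 85.9, 86.8, 80.2 and 85.9 CPM against 57.3, 59.7, 54 and 51.7 CPM. These groups did not overlap (log2 fold change 0.61 with SE 0.06, edgeR adjusted p = 9.34e-06). Herc6, the ligase that attaches ISG15 in mouse, rose by 0.55. Of the remaining enzymes of the cascade, Ube2l6 (E2) rose by 0.49, while Uba7 (E1) had a log2 fold change of 0.12 (95% interval -0.02 to 0.27, edgeR adjusted p = 0.106), which passed the threshold without FLOX replicate 7 (adjusted p = 0.0387).

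The Schlafen genes (SLFN), a cluster on chromosome 11 whose products bind RNA and restrain cell growth or virus replication, held both the largest rise and 1 of the 4 members that were not called. Slfn4 (ENSMUSG00000000204, chromosome 11, 83175186 to 83190216, mm10), a gene of myeloid cells, had 52, 82, 63 and 89 counts in CKO and 7, 8, 19 and 3 counts in FLOX, or 4.36, 5.40, 3.88 and 6.00 CPM and 0.491, 0.605, 1.03 and 0.213 CPM. Every CKO library was above every FLOX library, but the size of the change rests on few FLOX counts (log2 fold change 2.99 with SE 0.29, edgeR adjusted p = 5.78e-06). Slfn9 was at 76.5, 90.9, 86.7 and 105 CPM in CKO and 20.5, 29.4, 32.8 and 33.6 CPM in FLOX, with FLOX replicate 3 the lowest library (log2 fold change 1.63 with SE 0.14, edgeR adjusted p = 6.09e-06). Its neighbour Slfn8 rose by 0.65, and Slfn1 by 1.54 from 11, 10, 5 and 7 counts in FLOX to 21, 29, 25 and 19 in CKO. Slfn5, the most abundant of the 5, was at 226, 230.04, 229 and 249 CPM in CKO and 175, 226, 179.5 and 222 CPM in FLOX. FLOX replicates 4 and 7 reached almost to the lowest CKO library without overlap, and the log2 fold change of 0.22 (SE 0.09) was not called (edgeR adjusted p = 0.0549). It was called without FLOX replicate 4 (adjusted p = 0.0196) or FLOX replicate 7 (0.0239).

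Rises were small among the ADP-ribosyl transferases of the PARP family, which modify host and viral proteins. Parp12 was at 138, 148, 144 and 149 CPM in CKO and 94.5, 100.5, 101 and 88.9 CPM in FLOX, with no overlap (log2 fold change 0.59 with SE 0.06, edgeR adjusted p = 9.34e-06). Parp9 measured 162, 171, 161 and 168 CPM against 138, 139, 142 and 141 CPM; the difference was small but larger than the narrow spread of both groups (log2 fold change 0.24 with SE 0.05, edgeR adjusted p = 0.00222). Parp14, which is also known as a cofactor of STAT6 in the IL-4 response, rose by 0.40. Dtx3l, a ubiquitin ligase that works as a dimer with PARP9, stood at 24.6, 27, 25.6 and 29.99 CPM in CKO and 22.8, 23.6, 22.4 and 25.5 CPM in FLOX. Here FLOX replicate 7 exceeded CKO replicate 2, and the log2 fold change of 0.19 was not called (95% interval -0.01 to 0.38, edgeR adjusted p = 0.0732). The call was made without CKO replicate 2 (adjusted p = 0.0323) or FLOX replicate 7 (0.0454). Dtx3l and Parp9 overlap on opposite strands over 458 exon bases, and no source used here gives the strand setting of the counting, so reads there cannot be told apart. The same holds for Adar, which shares 1365 exon bases (16.8%) with Chrnb2 on the opposite strand, and for Slfn5, which shares 559 (8.84%) with Slfn5os.

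Among signalling and feedback genes 3 of 4 rose. Ifi35, a partner of NMI, measured 47.5, 52.5, 52.3 and 51.6 CPM in CKO and 33, 29.9, 33.1 and 27.1 CPM in FLOX (log2 fold change 0.73 with SE 0.08, edgeR adjusted p = 9.9e-06). Trim30a, a ubiquitin ligase that dampens Toll-like receptor signalling, was at 185, 213, 189.7 and 218 CPM and 117, 131, 129.9 and 131 CPM (log2 fold change 0.66 with SE 0.07, edgeR adjusted p = 1.02e-05). In both genes the groups were apart. Stat2, the subunit of ISGF3 that activates transcription, rose by 0.81 (edgeR adjusted p = 1.64e-05). Trafd1, a feedback inhibitor of Toll-like receptor and RIG-I signalling, was the only tested member with a log2 fold change below 0, at 163, 152, 154 and 158 CPM in CKO and 165, 167, 165 and 154 CPM in FLOX. The groups overlapped, and the log2 fold change was -0.06 (95% interval -0.19 to 0.08, edgeR adjusted p = 0.428).

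The 4 nuclear factors rose, 3 of them by more than 2-fold. Phf11b, a PHD finger gene in a cluster on chromosome 14, was at 43.4, 44.6, 41.5 and 47 CPM in CKO and 17.3, 16.6, 18.1 and 15.2 CPM in FLOX. Both groups were tight and apart (log2 fold change 1.39 with SE 0.08, edgeR adjusted p = 1.27e-07), though 47.0% of the 50-base stretches of Phf11b occur in other genes. Helz2, a helicase and nuclear receptor co-activator, measured 86.6, 109.8, 97.1 and 118 CPM and 34.2, 36.6, 41.5 and 42.9 CPM, CKO replicate 2 being the lowest of its group (log2 fold change 1.41 with SE 0.10, edgeR adjusted p = 8.78e-07). Phf11d rose by 1.33, and Sp100, a component of PML nuclear bodies, by 0.49.

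Of the 7 other interferon-induced genes 6 were tested, and all 6 rose. Ifi44 (ENSMUSG00000028037, chromosome 3, 151730922 to 151749960, mm10) stood at 42.5, 48.2, 44.6 and 48.5 CPM in CKO and 7.29, 9.91, 9.39 and 10.1 CPM in FLOX, and had the smallest p of all members (log2 fold change 2.33 with SE 0.10, edgeR adjusted p = 2.84e-08). Ms4a4c, a membrane protein of the MS4A family, was at 19.4, 19.9, 18.2 and 19.3 CPM against 5.75, 6.13, 6.26 and 5.61 CPM, with nearly equal values inside each group (log2 fold change 1.69 with SE 0.08, edgeR adjusted p = 9.22e-08). Rtp4 (1.07), a chaperone of membrane receptors that also binds viral RNA, Xaf1 (1.01), a partner of the caspase inhibitor XIAP, and Epsti1 (0.54) rose without overlap. Ifi27l2a, a small protein of membranes, was at 189.5, 175, 163 and 156 CPM in CKO and 166, 127, 153 and 122 CPM in FLOX. It was called with a log2 fold change of 0.27 (SE 0.10, edgeR adjusted p = 0.0427), but FLOX replicate 3 exceeded CKO replicates 7 and 8. The call ended without CKO replicate 2 (adjusted p = 0.0802), CKO replicate 6 (0.0713), FLOX replicate 4 (0.11) or FLOX replicate 7 (0.105). Ifi44l, which lies beside Ifi44, had 0 counts in all 8 libraries, where 3 counts would correspond to 0.162 to 0.251 CPM.

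**Figure D2:**
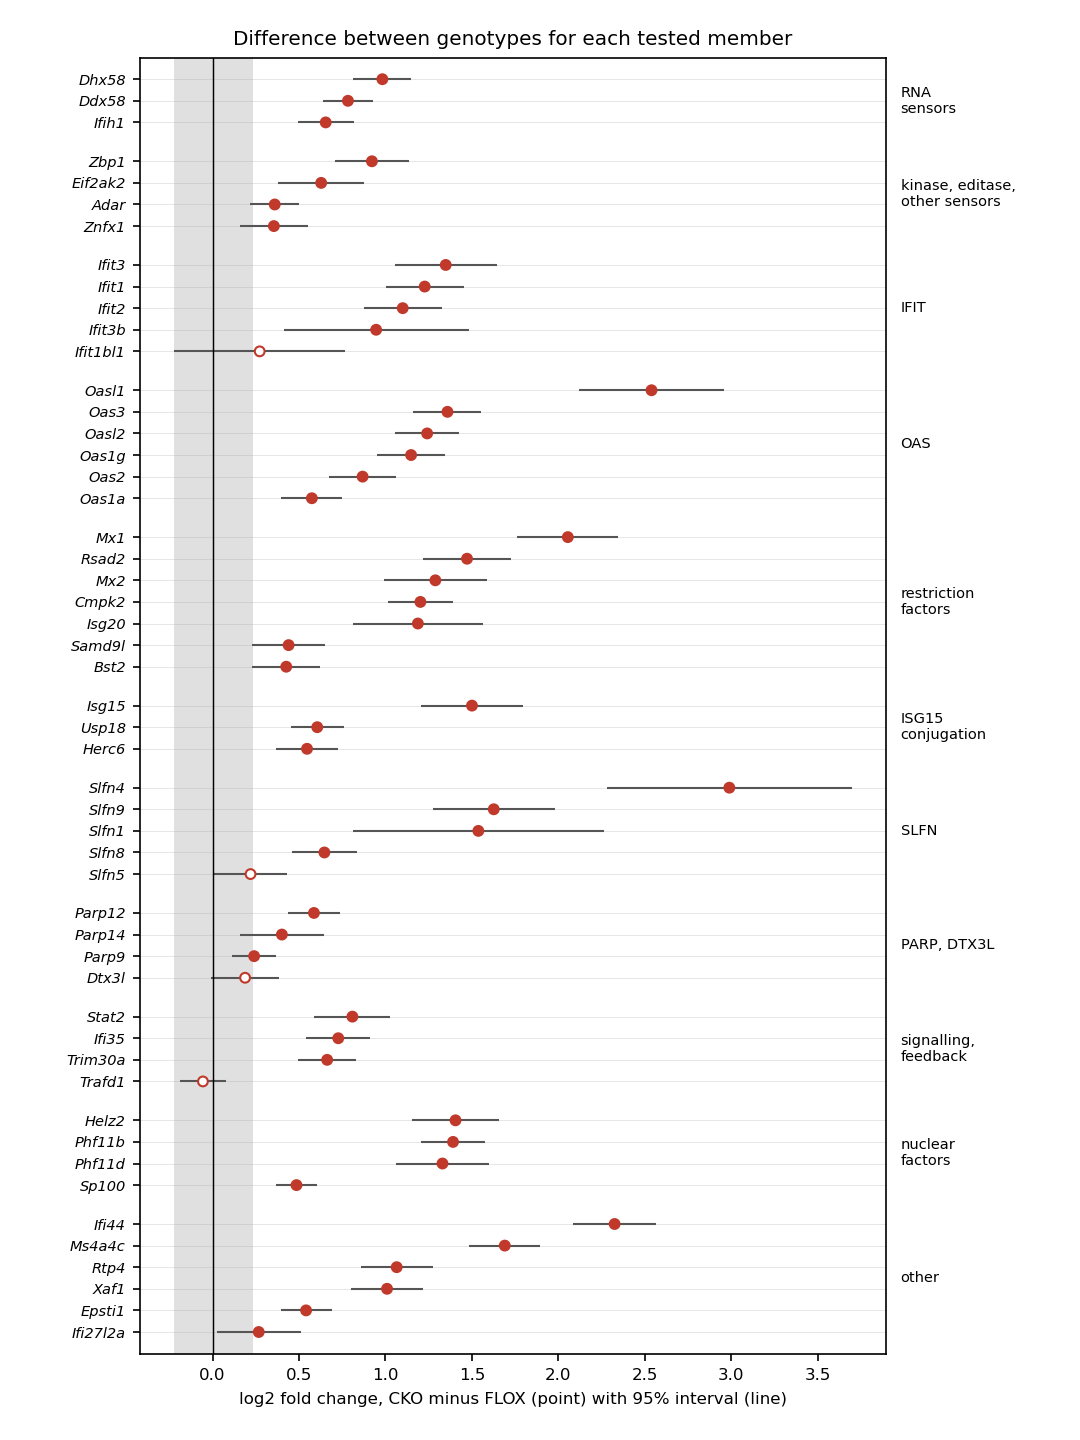
Log2 fold change of CKO against FLOX for the 51 tested members (points) with 95% intervals (lines), grouped by role; filled points passed an adjusted p of 0.05, open points did not, and the grey band holds the middle of all tested genes (25th to 75th percentile, -0.22 to 0.24). The 4 open points are Ifit1bl1, Slfn5, Dtx3l and Trafd1, and the rightmost points are Slfn4, Oasl1, Ifi44 and Mx1.

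Per length, the most abundant members were not those that rose most. Levels per kilobase of exon put Ifi27l2a first in both groups, at 306 ± 45.5 CPM per kb in FLOX and 369 ± 31.9 CPM per kb in CKO (SD, n = 4 each). Bst2 came next (182 ± 21.7 and 244 ± 11 CPM per kb) followed by Oas1a (53.7 ± 5.55 and 80.01 ± 1.82 CPM per kb). These 3 genes rose by 0.27, 0.43 and 0.57 on the log2 scale, all below the median of the members. Isg15 moved from rank 13 of the members in FLOX (23.2 ± 5.14 CPM per kb) to rank 4 in CKO (66.2 ± 2.39 CPM per kb). Oasl1 moved from rank 44 to 36 and Ifi44 from rank 45 to 42. Across the 51 tested members the log2 fold change and the log2 FLOX level per kb had a Spearman rho of -0.62 and a Pearson r of -0.63; both measures contain the FLOX values, so this is a description only.

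To describe the sequence in front of the members, promoter windows of 300 bases were taken (250 before to 50 after the RefSeq start, GRCm38.p6, the assembly of mm10). They were searched for the core of the ISRE, GAAANNGAAA, on both strands with overlapping matches counted. The members were chosen as interferon-stimulated genes, so how often they hold this core does not bear on the genotype. Windows were found for 42 of the 52 members; the other 10 are Dhx58, Zbp1, Oas2, Mx1, Mx2, Usp18, Parp9, Parp14, Ifi27l2a and Rtp4. Of these 19 (45.2%) held the core in at least 1 window, against 3.99% of the 27025 genes in the table. The motif TTCNNNGAA, the core of the gamma-activated sequence, which reads the same on both strands, was found in 7 of the 42 members (16.7%) and in 9.55% of all genes. Members with the ISRE core had a median log2 fold change of 0.81 (n = 19, 0.22 to 1.63), and those without it 1.05 (n = 22, -0.06 to 2.99). A match is a description of letters and not of binding, and a window without a match says only that these letters do not occur there. Shown are the 250 bases before the start of Isg15 (chr4:156200819-156201068, minus strand), where 3 overlapping matches begin 78, 72 and 66 bases before the start, of the pair Ifit3 (chr19:34583279-34583528, plus strand) and Ifit3b (chr19:34607707-34607956, plus strand), of Slfn9 (chr11:82991831-82992080, minus strand), the largest rise with a match, and of Oasl1 (chr5:114922990-114923239, plus strand), a larger rise without a match. Capitals mark the matches, written 5′ to 3′ along the gene.
Isg15: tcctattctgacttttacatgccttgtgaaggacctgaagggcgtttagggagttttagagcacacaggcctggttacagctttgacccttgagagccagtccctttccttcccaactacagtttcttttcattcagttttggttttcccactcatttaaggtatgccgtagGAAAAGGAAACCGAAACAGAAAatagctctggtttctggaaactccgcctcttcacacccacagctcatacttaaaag
Ifit3: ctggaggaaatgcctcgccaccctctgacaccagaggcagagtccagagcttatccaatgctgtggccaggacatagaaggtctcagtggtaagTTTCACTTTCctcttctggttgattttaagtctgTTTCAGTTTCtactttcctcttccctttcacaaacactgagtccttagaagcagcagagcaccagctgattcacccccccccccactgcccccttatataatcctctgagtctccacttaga
Ifit3b: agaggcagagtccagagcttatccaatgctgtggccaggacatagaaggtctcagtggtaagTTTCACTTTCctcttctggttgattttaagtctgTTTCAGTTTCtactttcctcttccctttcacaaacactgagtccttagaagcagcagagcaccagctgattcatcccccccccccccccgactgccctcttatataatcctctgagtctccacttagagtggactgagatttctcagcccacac
Slfn9: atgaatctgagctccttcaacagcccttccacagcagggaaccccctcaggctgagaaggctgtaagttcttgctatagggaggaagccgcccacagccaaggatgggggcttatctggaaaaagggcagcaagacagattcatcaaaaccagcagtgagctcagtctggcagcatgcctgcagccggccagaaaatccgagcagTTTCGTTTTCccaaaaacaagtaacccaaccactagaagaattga
Oasl1: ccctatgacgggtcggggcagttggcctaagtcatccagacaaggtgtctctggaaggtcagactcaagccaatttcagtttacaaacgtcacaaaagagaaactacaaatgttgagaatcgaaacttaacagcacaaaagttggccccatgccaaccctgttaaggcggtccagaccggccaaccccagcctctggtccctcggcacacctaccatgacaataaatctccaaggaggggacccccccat
In Ifit3 and Ifit3b the same pair of matches stands on the opposite strand, 156 and 122 bases before the start in Ifit3 and 188 and 154 bases before it in Ifit3b. The first bases of a GENCODE transcript were found in the Ifit3 window but not in that of Ifit3b, so the distances in Ifit3b are less certain. Levels of the pair were 21 ± 0.593 CPM per kb for Ifit3 and 1.22 ± 0.241 CPM per kb for Ifit3b in CKO.

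Other genes of the interferon pathway moved in both directions. Over lists that hold 98 further genes in the files, 27 of 70 tested genes rose (38.6%, against 23.8% of all tested genes) and 18 fell (25.7%, against 21.6%); their median log2 fold change was 0.08. The rises were mostly among relatives and partners of the effectors, described last. Among the 21 interferon ligand genes 19 had 0 counts in every library. Ifnb1 had 0, 0, 1 and 0 counts in the CKO libraries and 0, 0, 0 and 0 in FLOX, and none of the ligands could be tested. The receptor genes Ifnar1 (-0.10, 95% interval -0.27 to 0.08, edgeR adjusted p = 0.283) and Ifnar2 (-0.09, -0.24 to 0.06, edgeR adjusted p = 0.245) were not called. Of the 5 tested receptor genes 2 fell (40%, against 21.6% of all tested genes), and the other 3 were not called. Those that fell were Ifngr2 (-0.43) and Il10rb (-0.32), which serve interferon gamma and interferon lambda. Ifnlr1, also on the receptor list, had 0, 1, 2 and 1 counts in CKO and 3, 5, 1 and 3 in FLOX, and was not tested.

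Downstream of the receptor, Irf9, which encodes the subunit that gives ISGF3 its DNA specificity, rose by 0.34 on the log2 scale (edgeR adjusted p = 0.00137). The kinase genes Jak1 (-0.25, edgeR adjusted p = 0.0167) and Tyk2 (-0.21, edgeR adjusted p = 0.0213) fell slightly. The call of Jak1 ended without CKO replicate 6 (adjusted p = 0.0804) or 7 (0.0768), and that of Tyk2 without CKO replicate 6 (0.0907), 7 (0.109) or 8 (0.0812) or FLOX replicate 7 (0.0549). Of 6 feedback inhibitors 1 fell (16.7%, against 21.6% of all tested genes) and 5 were not called. Socs1 averaged 34.1 ± 7.24 CPM in CKO against 34.1 ± 2.55 CPM in FLOX (SD, n = 4 each; log2 fold change 0.01, 95% interval -0.31 to 0.32, edgeR adjusted p = 0.967). Socs3, at 2.44 ± 1.17 and 4.71 ± 1.24 CPM, was called lower (-0.89, edgeR adjusted p = 0.0252), but not without CKO replicate 2 (adjusted p = 0.0718), 6 (0.0929) or 8 (0.0658) or FLOX replicate 4 (0.0648) or 7 (0.0638).

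A list of 13 tested genes held Toll-like receptors of nucleic acid and the adaptors, ligases and kinases that pass the signal of sensors on. Of the 3 receptors Tlr3, the endosomal sensor of double-stranded RNA, rose by 0.57, while Tlr7 and Tlr9, sensors of single-stranded RNA and of DNA, were called lower (-0.34 and -0.44). The call of Tlr9 ended without CKO replicate 6 (adjusted p = 0.0957), 7 (0.0781) or 8 (0.0924) or FLOX replicate 4 (0.0628) or 7 (0.05999). Of the 10 adaptors, ligases and kinases 4 fell and 6 were not called. Over all 13 genes of this list 1 rose (7.69%) and 6 fell (46.2%), against 23.8% and 21.6% of all tested genes. The adaptor gene of TLR3, Ticam1, fell by 0.50 and the kinase gene Tbk1 by 0.27 on the log2 scale. Mavs, the mitochondrial adaptor of RIG-I and MDA5, averaged 55.4 ± 3.73 CPM in CKO against 52.8 ± 3.88 CPM in FLOX (SD, n = 4 each; log2 fold change 0.07, 95% interval -0.11 to 0.24, edgeR adjusted p = 0.468). Among 16 tested relatives of the OAS, SLFN, PARP, IFIT, HERC, IFI27, TRIM30 and PHF11 genes 11 rose (68.8%) and 3 fell (18.8%). The shares over all tested genes were 23.8% and 21.6%. Phf11a (1.97) and Slfn3 (1.16) rose, while Slfn2 fell from 463 ± 35.8 to 381 ± 15 CPM (SD, n = 4 each). Ifi27 (-0.59) and Herc4 (-0.35) fell too. Among 23 tested partners and other effectors 12 rose (52.2%) and 4 fell (17.4%), again against 23.8% and 21.6% of all tested genes. They included Pml (0.65), the scaffold of the nuclear bodies that hold SP100, and Ifitm2 (-0.63), a membrane protein that blocks virus entry.

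**Figure D3:**
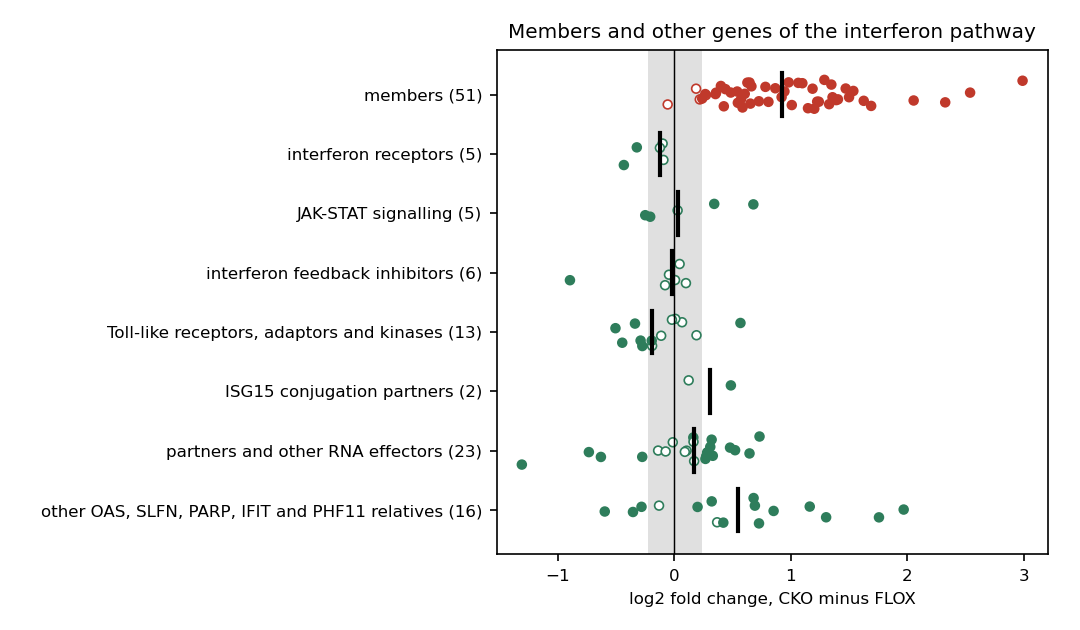
Log2 fold change of CKO against FLOX for the 51 tested members (red) and for the tested genes of each other interferon pathway list (green), with the number tested in brackets; filled points passed an adjusted p of 0.05, black bars are medians, points are spread vertically only to be seen, and the grey band is the 25th to 75th percentile of all tested genes. The member median of 0.92 stands to the right of every list median, and receptors, kinases and adaptors lie mostly at or left of 0.

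Markers of other cells were measured beside these groups. Of 6 tested monocyte markers 5 rose in CKO (83.3%, against 23.8% of all tested genes), among them Ccr2 from 33.5 ± 3.13 to 72.8 ± 7.99 CPM (SD, n = 4 each). Chil3 fell, so that the sum of the 9 markers was 114 to 139 CPM in CKO and 151 to 202 CPM in FLOX. Of 4 tested neutrophil and precursor markers 3 rose (75%). The 9 markers in the files summed to 4.68 to 10.3 CPM in CKO and 1.92 to 3.30 CPM in FLOX, with Elane and Retnlg at 0. The part of these cells in the rise of the effectors was not tested. Plasmacytoid dendritic cells are a source of type I interferon, and their markers Siglech, Ccr9, Ly6d and Pacsin1 each averaged at most 0.115 CPM in either group, with Klk1 at 0. Others of the list were well above 0. Tcf4 averaged 78.5 CPM in CKO and 87.0 CPM in FLOX and Runx2 8.85 and 8.07 CPM, and neither was called. Cd300c, at 0.463 and 0.468 CPM, was not tested. Cox6a2 rose from 1.60 ± 0.397 to 6.21 ± 0.904 CPM, and Irf8, which macrophages also express, fell from 181 ± 8.19 to 117 ± 14.6 CPM. The 10 markers summed to 199 to 233 CPM in CKO and 260.1 to 290.3 CPM in FLOX, mostly from Irf8 and Tcf4. Lymphocyte markers summed to at most 0.37 CPM in any library, with Cd3e and Ncr1 at 0.

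Inside the groups, the members varied more among FLOX than among CKO libraries. Their median coefficient of variation was 11.3% in FLOX and 5.54% in CKO, and it was larger in FLOX for 42 of the 51 members. The wider spread in FLOX was not particular to the members, since the medians over all tested genes were 10.1% and 6.86%. FLOX replicate 6 was the highest control for 27 members and the lowest for 2, at a median of 107% of the group mean. In CKO, replicate 8 was highest for 29 members, while replicates 2 and 7 were lowest for 22 and 21. Such counts were not made over all tested genes, so they describe the members only. The FLOX libraries also differed by transcript length. Across the 51 members the log2 ratio of FLOX replicate 3 to FLOX replicate 7 had a Spearman rho of -0.67 with exon length (Pearson r -0.53), and the rho over 11103 tested genes was -0.56, so short genes such as Bst2 and Ifi27l2a were higher in FLOX replicate 3 and long ones such as Parp14 and Samd9l were lower. Between the genotypes, the log2 fold change of the members had a rho of -0.22 with exon length (Pearson r -0.16). These relations are across genes of shared libraries, which are no independent replicates.

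**Figure D4:**
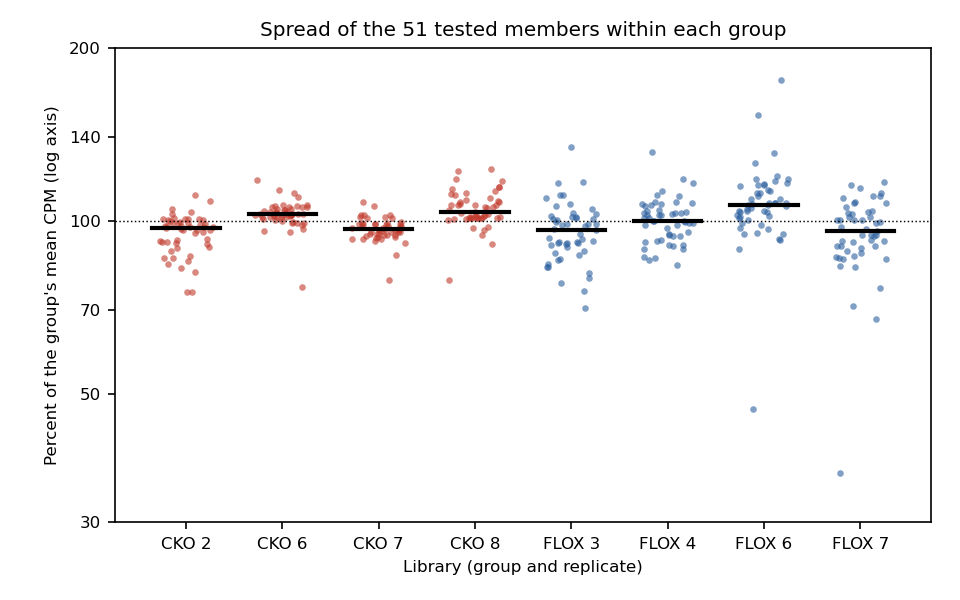
Level of each of the 51 tested members in each library as a percent of the mean of its own group (log axis), with the median of the members as a black bar; red is CKO and blue is FLOX. The bars lie between 96.1% (FLOX replicate 7) and 107% (FLOX replicate 6), and the blue clouds are wider than the red ones.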

How the data were processed

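RNA of 8 BMDM cultures (4 CKO, 4 FLOX, named by their titles) was sequenced as paired ends. The authors deposited unnormalised whole-number counts per gene symbol. The submitters' processing notes name HISAT2 2.0.5, HTSeq and mm10; no source used here gives the version, annotation or strand setting of HTSeq. Between 66.3% and 71.7% of pairs were assigned to a gene; library sizes leave out HTSeq's classes of unassigned pairs, and multiply aligned pairs are among them, so genes with near copies are undercounted. From the counts, edgeR 4.0.16 in R 4.3.3 kept 11519 genes (filterByExpr, minimum count 10, minimum total 15), scaled libraries by TMM and made a robust quasi-likelihood F test of genotype. Standard errors are the log2 fold change over the root of F; 95% intervals were taken on 6 residual degrees of freedom. The test was first run on simulated counts in which only a small part of the genes changed. In these data 45.4% of tested genes were called, so that run does not measure the error rate here. Libraries of a group differed beyond sampling noise (2.45 to 27.9 in chi-square units over degrees of freedom). FLOX replicates 3 and 6 (6.45) and FLOX replicates 4 and 7 (4.52) were closest, and the other FLOX pairs gave 15.6 to 27.9. CKO replicate 2 gave 7.42 to 9.63 against the other CKO libraries, which gave 2.45 to 3.05 among themselves. The cause of this structure was not tested. Exon lengths, positions and 50-base stretches came from GENCODE M21 (GRCm38), promoters from RefSeq. The limit of 3 counts covers counting error only.

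The members, lists and tests were chosen with earlier results of these data known, so no set test was made. Per-library values are given for up to 2 members of smallest p in each role and for those not called or not tested. Oasl1, Slfn1, Ifit3b and Ifi27l2a were added after their values were seen. So were the pathway genes Ifnlr1, Ticam1, Tbk1, Tlr7, Tlr9, Phf11a, Slfn3, Slfn2, Ifi27, Herc4, Pml, Ifitm1, Ifitm2, Ifitm6 and Samhd1. The alternatives tried were upper-quartile and RLE scaling, other filters (none, or 1 CPM in 4 or more libraries), limma-voom (limma 3.58.1), DESeq2 1.42.0, the 20 most abundant genes left out, the replicate number as a block, and each library left out in turn. The fit without CKO replicate 2 and FLOX replicate 6 was added after seeing the data. Some genes of the lists are not reported here by name.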

Additional observations from a re-analysis of the deposited data

Results flagged for a closer look

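In 5 of 102 groups of 4 libraries, 1 library of a tested member stood apart from the other 3 by more than Dixon's 95% criterion, where chance flags about 1 in 20. Ddx58 was at 164 CPM in CKO replicate 7, below 173 to 175 CPM in the others. Usp18 was at 80.2 CPM in the same library, below 85.9 to 86.8 CPM. Slfn5 was at 249 CPM in CKO replicate 8, above 226 to 230.0 CPM. Trim30a was at 117 CPM in FLOX replicate 3, below 129.9 to 131 CPM, and Mx1 was at 11.5 CPM in FLOX replicate 6, above 10.5 to 10.7 CPM.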

How the results depend on the processing

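Over the 17 alternatives 46 to 48 members were called higher and 0 lower; 47 of 51 members kept their direction and their side of the threshold in every one, the exceptions being Slfn5, Parp9, Dtx3l and Ifi27l2a. Slfn5 passed the threshold with upper-quartile factors, no filter, limma-voom and without the 20 most abundant genes (adjusted p 0.0341 to 0.0469), and Ifi27l2a missed it with upper-quartile factors (0.0596) and without CKO replicate 2 and FLOX replicate 6 (0.0707). The median log2 fold change of the members ran from 0.84 to 0.97 when 1 library was left out and was 1.00 without CKO replicate 2 and FLOX replicate 6, which were chosen as the most frequent lowest CKO and highest FLOX library of the members, so that this rise is built in. For Opa1 the log2 fold change was -0.18 and passed the threshold with upper-quartile factors, and ran from -0.23 to -0.12 when 1 library was left out. Socs1, near 0, was at -0.0071 with limma-voom and between -0.071 and 0.13 when 1 library was left out, and Adgre1 between -0.0060 and 0.036. In each case the cause was not tested. Only the numbers 6 and 7 occur in both groups, and the labels do not say that they pair libraries. Deviations from the group means correlated at 0.16 for number 6 and -0.09 for number 7. Between libraries of unlike number they ran from -0.35 (CKO replicate 8 and FLOX replicate 3) to 0.28 (CKO replicate 8 and FLOX replicate 7). With the replicate number as a block, only replicates 6 and 7 of each group bear on the genotype. Every other number occurs in 1 library, which its own block fits, so few residual degrees of freedom remain. This fit therefore rests on fewer libraries than the others. In it 46 members rose, and Parp9, Tbk1, Slfn2 and Tyk2 lost their calls (edgeR adjusted p = 0.111, 0.162, 0.144 and 0.0631). The log2 fold change of Slfn1 was 2.20, Mavs was at -0.037 and Adgre1 was at -0.028. Other pathway genes gave 19 higher and 12 lower in place of 27 and 18. Of all tested genes 17.2% were then higher and 13.2% lower, against 23.8% and 21.6%, and with no filter 16.7% and 15.03%, where more genes were tested. Low counts limit Slfn1, Slfn4, Ifit3b, Ifit1bl1 and Isg20.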
